A study of Mus musculus with 8 samples.

Results

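The expression of 8 forkhead genes of the tracheal mesenchyme was followed: Foxp1, Foxp2, Foxp4, Foxc1, Foxc2, Foxd1, Foxd2 and Foxl1. They were taken by name, 8 of the 23478 gene symbols in each of 2 count tables, and all 8 had enough counts to be tested in both. Forkhead proteins share a winged-helix DNA-binding domain whose recognition helix lies in the major groove of DNA. The Foxp proteins are repressors that bind DNA as pairs with themselves or with each other, and in mouse they act in lung, foregut and skeletal development. Foxc1 and Foxc2 act in mouse somites, cartilage, bone and vessels, Foxd1 marks kidney stroma, and Foxl1 is a Hedgehog-responsive gene of gut mesenchyme. Foxd2 is a close relative of Foxd1.

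The first set of mouse libraries was sorted E13.5 cells of Bmp4flox/flox, Cre+, γSMAeGFP tracheas (Bmp4 mutants, 2 libraries) and of Bmp4flox/flox, γSMAeGFP tracheas (controls, 3 libraries). Both groups carried the floxed Bmp4 alleles and the muscle reporter, and cells positive for EPCAM or GFP were removed, so the labels call what was left chondroblasts. The second set was whole E13.5 trachea from Wls flox/flox, ShhCre+ embryos (1 library) and from Wls flox/flox embryos (2 libraries). The Bmp4 controls carried no Cre, and none is named for the Wls controls. The deletion and the presence of Cre therefore cannot be told apart in either set. ShhCre acts in Shh-expressing epithelium. Whether each library is its own embryo or a pool is not stated in the labels, so a p-value here reflects variation among the libraries sequenced, technical variation included. The series' design text says that data generated earlier were included but not which libraries those are, so a batch could not be tested. The sorted cells address what Bmp4 does in tracheal mesenchyme, and the tracheas what Wnt secretion by the epithelium does.

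Depth was 12964287 and 15462780 counts in the Bmp4 mutants against 48876948 to 55492747 in their controls, and 24596836 counts in the Wls mutant against 27237573 and 31399982 in its controls. The targeted genes were lower in each mutant: Bmp4 had 24.1 and 32.2 CPM (counts scaled to library size, with TMM factors) in the mutant sorted cells against 99.2 to 124 CPM in controls, and Wls had 65.8 CPM in the mutant trachea against 153 and 146 CPM. Both Bmp4 mutant libraries also held counts in genes silent in the controls. Olfactory and vomeronasal receptor genes summed to 2450 and 2198 CPM there against 10.9 to 14.8 CPM. The embryonic globin gene Hbb-y, a red cell gene, had 1365116 and 14136 counts in the mutants against 192, 368482 and 359218 counts in the controls, so mutant 1 stood apart. Cartilage markers summed to between 641 and 1663 CPM in the Bmp4 mutants against 2742 to 5367 CPM, so they were present in the sorted cells of both groups. Smooth muscle markers summed to 387 to 1742 CPM against 216 to 235 CPM although the sort removed reporter-positive cells. Epithelial markers summed to 69.8 to 100.5 CPM against 24.5 to 36.5 CPM. The part of the background in the marker sums of the mutants was not tested.

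The family resemblance is shown for 6 of the genes by the stretch that codes for the recognition helix and the residues after it, 48 bases or 16 codons, printed 5′ to 3′ on the coding strand from the GENCODE M21 transcripts (GRCm38). Capitals mark the 26 bases that are identical in all 8 genes.

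Foxp4: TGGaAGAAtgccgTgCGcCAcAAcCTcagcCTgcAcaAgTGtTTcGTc
Foxc1: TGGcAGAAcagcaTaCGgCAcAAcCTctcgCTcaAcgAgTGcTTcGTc
Foxc2: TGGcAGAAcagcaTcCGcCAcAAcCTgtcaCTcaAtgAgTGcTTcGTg
Foxl1: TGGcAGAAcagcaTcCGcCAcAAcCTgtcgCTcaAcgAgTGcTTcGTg
Foxd1: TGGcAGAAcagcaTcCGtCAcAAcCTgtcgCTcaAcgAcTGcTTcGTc
Foxd2: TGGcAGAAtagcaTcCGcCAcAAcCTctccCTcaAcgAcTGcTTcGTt

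In GRCm38 these lie at chr13:31807571-31807618 (Foxc1), chr8:121116957-121117004 (Foxc2), chr8:121128238-121128285 (Foxl1) and chr13:98355139-98355186 (Foxd1) on the plus strand and chr4:114908258-114908305 (Foxd2) on the minus strand, each in the only exon of its gene. The Foxp4 stretch crosses an intron and spans chr17:47871310-47874640 on the minus strand. Foxc2 and Foxl1 shared 46 of the 48 bases, Foxd1 and Foxd2 43, and Foxc1 and Foxc2 42. Over whole transcripts the longest identical run was 53 bases for Foxc1 with Foxc2, 47 for Foxd1 with Foxd2 and 35 for Foxp1 with Foxp2. Short reads inside such runs cannot be given to one gene, and how the authors counted them is not given in the sources used here. None of the 8 genes overlaps another gene of the count tables in that annotation.

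Levels in controls were compared per kilobase of exon. In control sorted cells Foxp2 stood first at 20.7 CPM per kilobase (range 19.96 to 21.7, n = 3), followed by Foxl1 at 15.2 (9.59 to 24.02), Foxp4 at 8.64 (7.29 to 10.6) and Foxp1 at 8.51 (6.52 to 10.54). Neighbours in this order overlapped, though Foxp2 lay wholly above Foxp4 and Foxp1. Foxp1 and the genes above it stood apart from Foxc2 at 4.11 (3.21 to 5.88) and Foxc1 at 3.88 (2.997 to 5.16). Foxd1 and Foxd2 came last at 0.140 (0.0261 to 0.341) and 0.135 (0.034 to 0.265). In control tracheas Foxp4 led at 66.3 CPM per kilobase (64.7 to 67.8, n = 2). Foxc2, Foxp1, Foxp2 and Foxc1 lay close together at 11.96, 11.8, 11.3 and 10.8 and overlapped pairwise in that order, then came Foxl1 at 7.40, Foxd2 at 0.832 and Foxd1 at 0.428. Sorted cells and whole tracheas were amplified with different kits, so no level was tested across them.

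**Figure D1:**
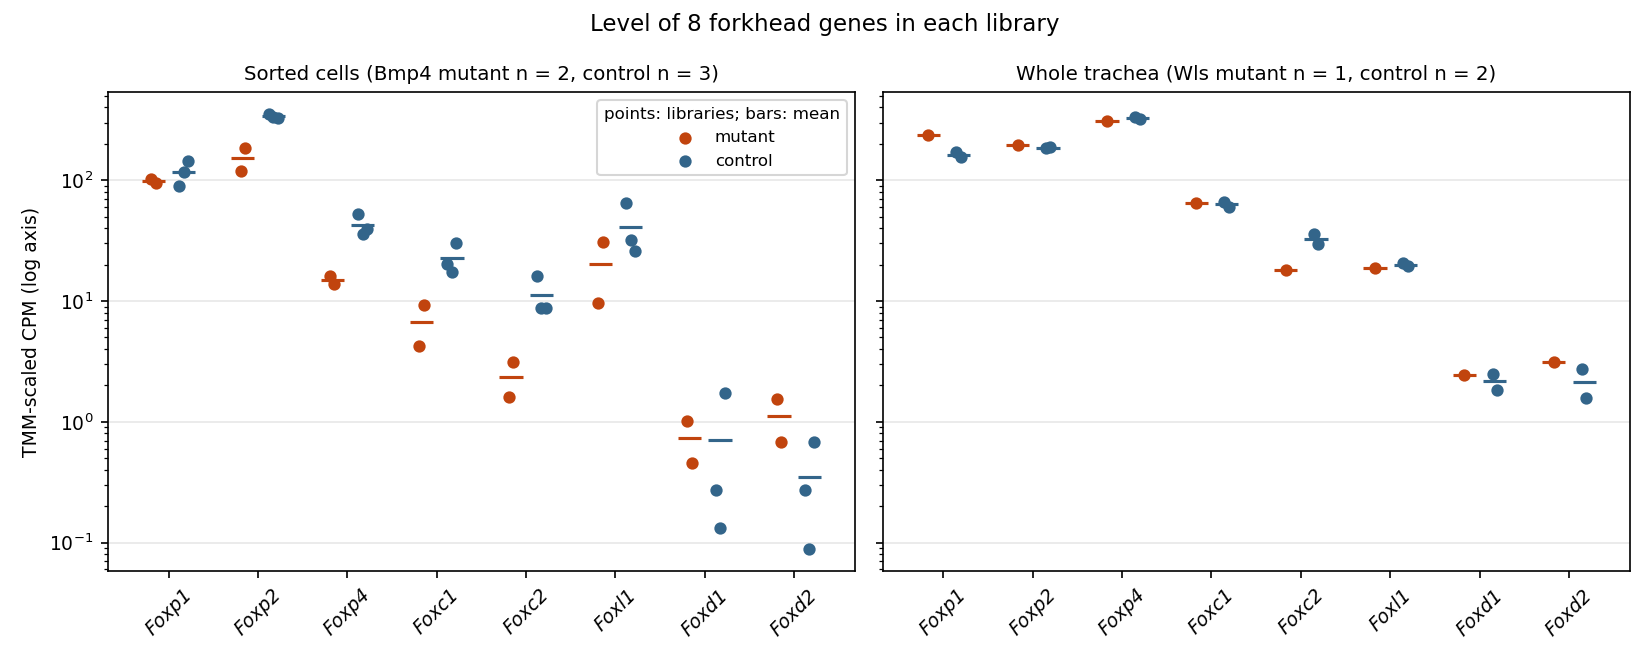
CPM of each gene in every library on a log axis, sorted cells on the left and whole trachea on the right, with points for libraries and bars for group means. Foxp2, Foxp4, Foxc1 and Foxc2 lie lower in both Bmp4 mutants than in any control, and Foxc2 lies lower in the Wls mutant than in both controls.

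Loss of Bmp4 went with lower levels of 4 of the 8 genes in the sorted cells and higher levels of none. Foxp2, Foxp4, Foxc1 and Foxc2 fell by edgeR's quasi-likelihood test with Benjamini-Hochberg adjustment over all 21665 genes tested, at an adjusted p under 0.05. In the same test 15.6% of all genes were lower and 39.3% were higher in the mutants. The median log2 fold change of mutant over control was -1.09 for the 8 genes and 0.53 for all genes tested. The 12522 genes at least 5 times above the receptor-gene background in both groups had a median of -0.24, and the part of the background in the median of all genes was not tested. With scaling factors from those genes alone 9052 genes were higher and 1770 lower, against 8507 and 3381 with TMM scaling. The median of all genes then moved to 0.73, and Foxp2, Foxp4, Foxc1 and Foxc2 stood at -0.96, -1.30, -1.55 and -2.04.

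Of the Foxp genes, which make the repressors, Foxp2 and Foxp4 passed the test and Foxp1 did not. Foxp4 had 16.2 and 13.8 CPM in the Bmp4 mutants, against 52.3, 35.9 and 39.5 CPM in the controls. The groups did not overlap and the mutants were close to each other, giving a log2 fold change of -1.50 ± 0.23 (SE; edgeR adjusted p = 0.0033). Foxp2 had 119 and 184 CPM in the mutants, against 355, 333 and 326 CPM in the controls. Here too the groups did not overlap, with mutant 1 the lower of the mutants (log2 fold change -1.16 ± 0.22, edgeR adjusted p = 0.0042). Without mutant 1, the library with the high globin count, Foxp2 stood at -0.89 and Foxp4 at -1.64, each with edgeR adjusted p = 0.039. Foxp1 had 103 and 94.4 CPM in the mutants, against 89.6, 117 and 145 CPM in the controls. Both mutants lay inside the control range, the log2 fold change was -0.24 with a 95% interval from -0.75 to 0.26, and the gene did not pass (edgeR adjusted p = 0.36).

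The Foxc genes, regulators of paraxial mesoderm and cartilage, had the lowest fold changes of the 8. Foxc2 had 1.61 and 3.11 CPM in the Bmp4 mutants, against 16.03, 8.76 and 8.81 CPM in the controls. All mutant values were below all control values, and control 1 was higher than the other controls, which gave a log2 fold change of -2.24 ± 0.53 (edgeR adjusted p = 0.010). Foxc1 had 4.24 and 9.23 CPM in the mutants, against 20.4, 17.5 and 30.1 CPM in the controls (log2 fold change -1.74 ± 0.43, edgeR adjusted p = 0.012). Its groups did not overlap, and the mutants differed from each other more than for Foxp4. Both Foxc calls ended without mutant 1, with edgeR adjusted p = 0.073 for Foxc1 and 0.065 for Foxc2, and by limma-voom, with adjusted p = 0.055 and 0.051. Cartilage markers fell with the Foxc genes, 7 of 11 lower and 1 higher. Endothelial markers, of cells that also use Foxc genes, summed to 206 and 262 CPM in the mutants against 26.6 to 124 CPM in the controls. By edgeR 2 of 8 endothelial markers were higher and 0 lower. The part of either cell type in the Foxc result was not tested, and fewer cells of a type and less RNA per cell cannot be told apart in such bulk samples.

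Foxl1, the Hedgehog-responsive gene, varied widely between libraries of the same group. It had 9.64 and 30.7 CPM in the Bmp4 mutants, against 65.0, 32.3 and 26.0 CPM in the controls. Mutant 2 lay inside the control range, the log2 fold change was -1.02 ± 0.56, and it did not pass (edgeR adjusted p = 0.16). Without mutant 2 it was at -2.09 (adjusted p = 0.055) and without mutant 1 at -0.43 (adjusted p = 0.56). Foxd1 had 14 and 8 counts in the mutants, against 14, 6 and 83 counts in the deeper controls, or 1.02 and 0.453 CPM against 0.273, 0.132 and 1.73 CPM. Foxd2 had 21 and 12 counts in the mutants, against 14, 4 and 33 counts in the controls, or 1.53 and 0.680 CPM against 0.273, 0.0882 and 0.686 CPM. For both genes control 3 was the highest control and overlapped a mutant, and neither passed (edgeR adjusted p = 0.98 for Foxd1 and 0.18 for Foxd2, with 95% intervals from -2.69 to 2.78 and from -0.58 to 3.87).

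**Figure D2:**
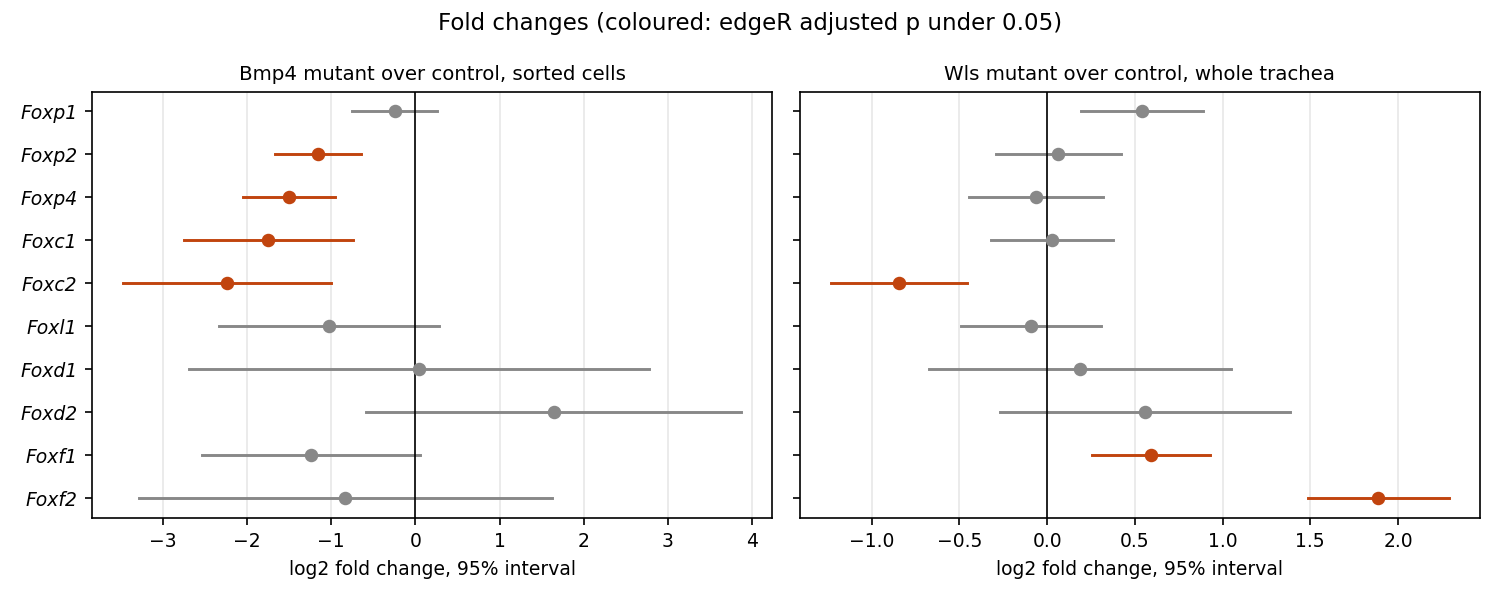
Log2 fold changes of mutant over control with 95% intervals for the 8 genes and for Foxf1 and Foxf2, sorted cells on the left and whole trachea on the right, coloured where the edgeR adjusted p was under 0.05. In sorted cells Foxp2, Foxp4, Foxc1 and Foxc2 are coloured on the lower side, and in trachea Foxc2 on the lower and Foxf1 and Foxf2 on the higher side.

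The counts behind the mutant values were set beside the background of those libraries. Per kilobase of coding sequence the receptor genes had 20.1 and 21.5 counts in mutants 1 and 2, against 0.282 to 0.399 in the controls. At that rate over their exon lengths, Foxp1 would hold 276 and 295 background counts and was observed at 1413 and 1667, and Foxp2 would hold 328 and 351 and was observed at 1628 and 3251. Foxp4 was observed at 2.24 and 2.31 times its background count and Foxl1 at 2.43 and 9.33 times. Foxc1 was at 0.494 and 1.30 times and Foxc2 at 0.402 and 0.940 times. At the lower receptor rate per kilobase of annotated exon, 5.92 and 6.33 counts, Foxc1 was at 1.68 and 4.4 times and Foxc2 at 1.36 and 3.19 times background, and Foxp4 at 7.62 and 7.82 times. Which length applies depends on the authors' annotation, which is not given in the sources used here. How much of the mutant Foxc counts is the genes' own was therefore not settled.

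The background was also uneven in base composition. Genes without a count in any control had 25.9 and 18.2 counts per kilobase in mutants 1 and 2 at a GC content of 50 to 55% (597 genes), but 9.14 and 6.48 at 60% or above (117 genes). Foxc2, with a GC content of 62.0%, had 8.07 and 20.2 counts per kilobase, so it was near its bin in mutant 1 and above it in mutant 2. Foxd2, with 62.7%, had 8.10 and 4.63, and Foxp4, with 63.4%, had 45.1 and 49.5. Foxc1, with a GC content of 55.9%, had 9.92 and 27.9 counts per kilobase. Its bin of 55 to 60% (250 genes) had 19.6 and 11.5, so Foxc1 was below its bin in mutant 1 and above it in mutant 2. Forkhead genes that were silent in every control also varied: Foxn4, Foxd4 and Foxb1 had 22.8, 33.1 and 20.1 counts per kilobase in mutant 1 and 14.8, 15.3 and 9.05 in mutant 2, while Foxe1 had no count in either. Foxd1, with a GC content of 54.4%, had 2.76 and 1.58 counts per kilobase, below the background of its composition in both mutants. Subtracting the receptor rate per exon kilobase kept the calls of Foxp2, Foxp4, Foxc1 and Foxc2 (log2 fold changes -1.04, -1.52, -2.17 and -2.91, edgeR adjusted p = 0.012, 0.0084, 0.030 and 0.022). Subtracting the rate per coding kilobase, an alternative chosen after seeing the data, kept the calls of Foxp4 (log2 fold change -1.83, edgeR adjusted p = 0.025) and Foxc2, whose mutants were then both at 0. It ended those of Foxc1 (-3.87, adjusted p = 0.091) and Foxp2 (-0.88, adjusted p = 0.0504).

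**Figure D3:**
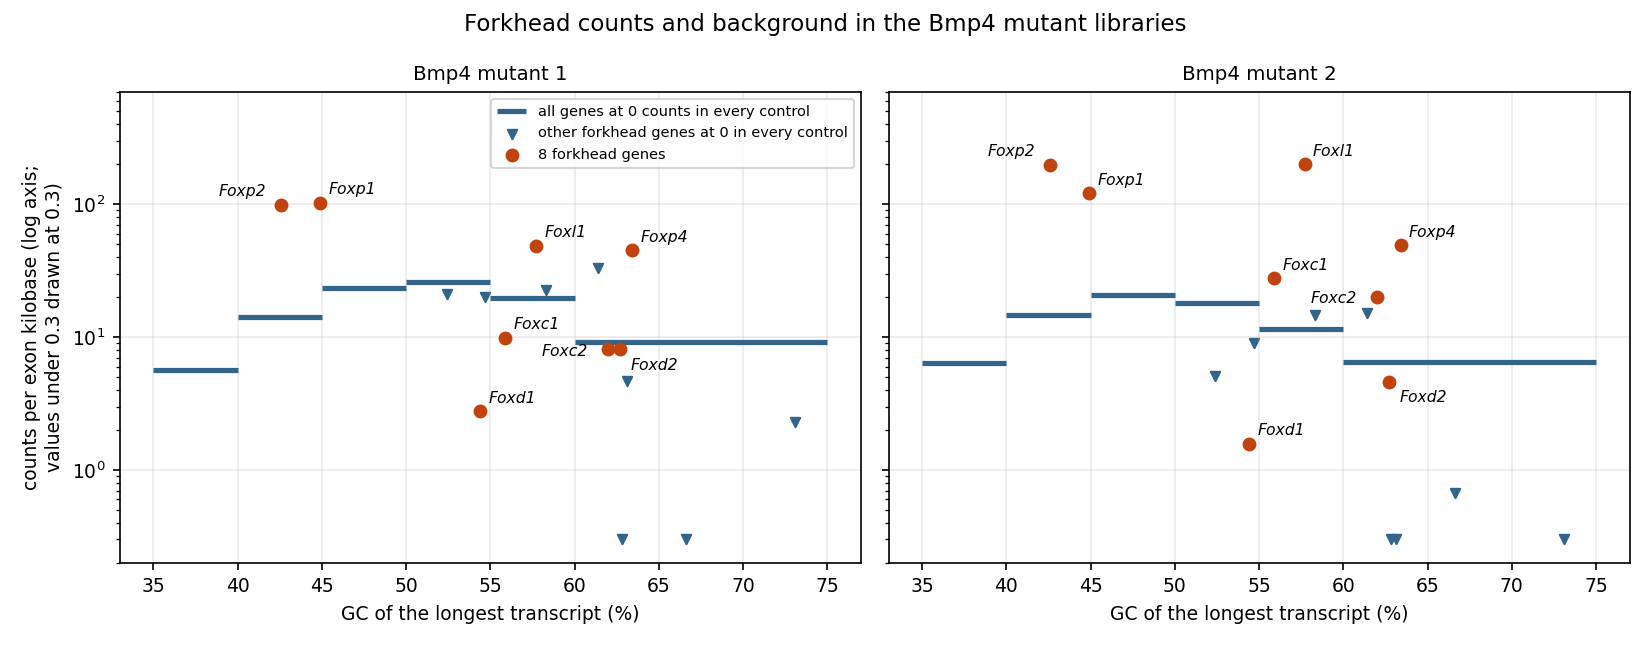
Counts per kilobase of exon (log axis) against GC content in the 2 Bmp4 mutant libraries, for the 8 genes (circles), for other forkhead genes without a count in any control (triangles) and for all such genes in GC bins (bars, outer bins drawn to 35 and 75%). Foxp1, Foxp2, Foxp4 and Foxl1 lie above the bars in both mutants, and Foxc2 lies near them in mutant 1. Foxc1 lies below its bar in mutant 1 and above it in mutant 2.

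In whole trachea, loss of epithelial Wls went with a lower level of Foxc2 alone among the 8 genes by edgeR's test. Foxc2 had 18.1 CPM in the Wls mutant, against 35.6 and 29.6 CPM in the controls (log2 fold change -0.85 ± 0.20, edgeR adjusted p = 0.0015; DESeq2 adjusted p = 0.067). Of the 15815 genes tested, 2.39% were lower and 1.88% higher in the mutant. This test has 1 residual degree of freedom and takes the single mutant library to vary like the controls. Foxp1 had 237 CPM in the mutant, against 171 and 155 CPM in the controls. That is above both controls, with a log2 fold change of 0.54 ± 0.18 that just missed the threshold (edgeR adjusted p = 0.056). With RLE scaling factors in place of TMM, Foxp1 passed in edgeR (adjusted p = 0.049). By DESeq2 and by limma-voom Foxp1 did not pass. Cartilage markers summed to 706 CPM in the mutant against 1606 and 1836 CPM, with 8 of 11 lower, and epithelial markers to 1131 CPM against 684 and 806 CPM. Airway epithelium also uses Foxp genes, and the part of these shifts in Foxc2 and Foxp1 was not tested.

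None of the other members passed the test in the tracheas. Foxp2 had 194 CPM in the Wls mutant, against 184 and 187 CPM in the controls, and Foxp4 had 312 CPM against 334 and 319 CPM. Their log2 fold changes were 0.065 and -0.066, with 95% intervals from -0.29 to 0.42 and from -0.45 to 0.32. Foxc1 had 64.4 CPM in the mutant, against 66.0 and 60.4 CPM in the controls, and Foxl1 had 18.8 CPM against 20.7 and 19.4 CPM. The intervals were -0.32 to 0.37 for Foxc1 and -0.49 to 0.31 for Foxl1. The Foxc2 value of -0.85 lay outside both, but the interval of Foxc2 (-1.23 to -0.46) overlapped that of Foxl1. With 1 mutant library these intervals hold no variation between mutants, and differences between genes were not tested. Foxd1 had 60 counts in the mutant, against 67 and 59 in the controls, and Foxd2 had 77 against 73 and 51, too few to bound a change closely (intervals -0.68 to 1.05 and -0.27 to 1.38). By a rule of size without a test, the mutant outside the controls by more than the controls differ in log2 CPM, Foxc2 was lower and Foxp1 and Foxp2 were higher. That rule took 20.8% of all genes as lower and 19.2% as higher.

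Ratios of counts within 1 library do not depend on scaling, and were examined after the values had been seen. The counts were not corrected for background, and its part in the ratios was not tested. Foxp4 counts were 0.157 and 0.146 of Foxp1 counts in the Bmp4 mutants, against 0.584, 0.308 and 0.273 in the controls, and 1.32 in the Wls mutant, against 1.96 and 2.06 in its controls. In each set the mutants lay below every control, and how often other gene pairs do so was not examined. In the sorted cells Foxp4 had a log2 fold change of -1.50 and Foxp1 of -0.24. In the tracheas Foxp4 had -0.066 and Foxp1 0.54, so different genes moved in the 2 sets. The mean log2 ratio differed by -1.27 in the sorted cells (exact permutation test, two-sided p = 0.2, the smallest that 2 against 3 libraries allow). Foxp2 counts were 1.15 and 1.95 times Foxp1 counts in the Bmp4 mutants, against 3.96, 2.86 and 2.25 times in the controls, and 0.819 times in the Wls mutant, against 1.08 and 1.21 times. These groups did not overlap either. Of the summed Foxp CPM per kilobase, Foxp1 made up 41.5% and 32.8% in the Bmp4 mutants, against 16.8%, 23.4% and 27.4% in the controls.

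The count ratio of Foxc2 to Foxc1 was 0.379 and 0.337 in the Bmp4 mutants, against 0.787, 0.500 and 0.292 in the controls, so the groups overlapped. It was 0.281 in the Wls mutant, against 0.540 and 0.489 in its controls. In the Bmp4 mutants Foxc1 counts were 0.494 and 1.30 times and Foxc2 counts 0.402 and 0.940 times the background at the coding rate. The part of the background in this ratio was not tested. Whether the ratio responds differently to the 2 deletions was not tested either.

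**Figure D4:**
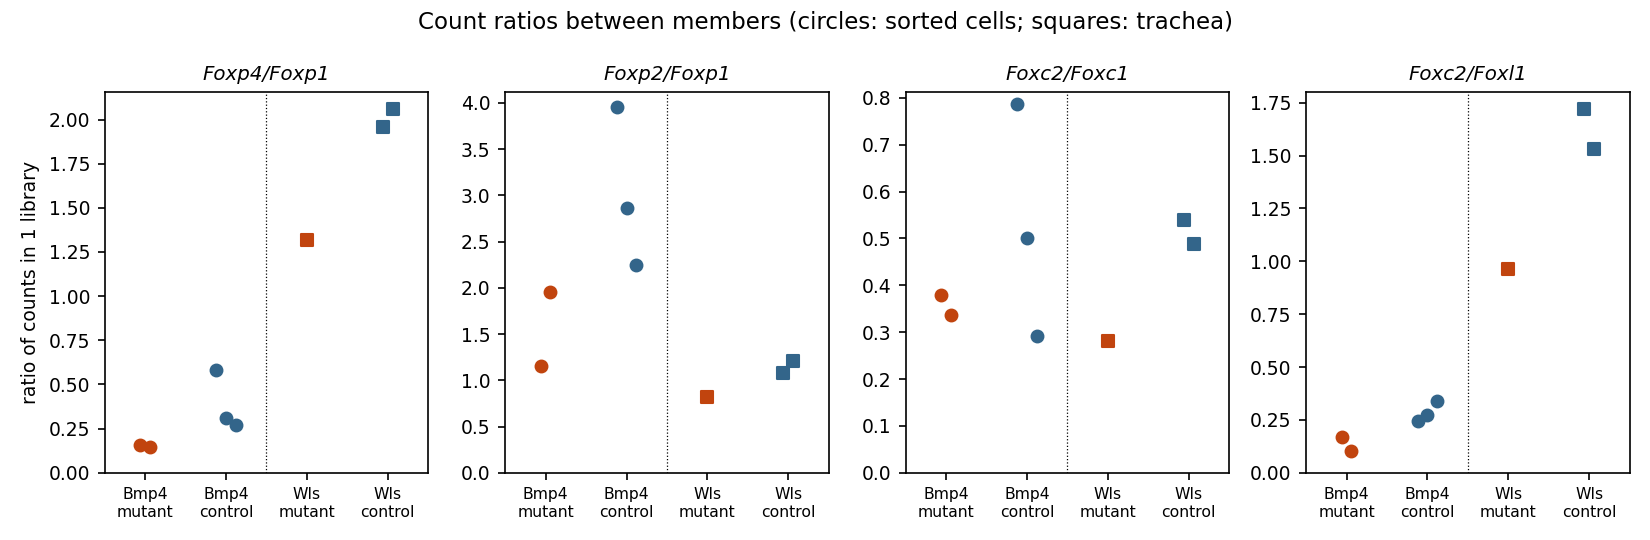
Ratio of the counts of 2 genes within each library (y axis from 0), circles for sorted cells and squares for trachea. Counts are not corrected for background. Foxp4/Foxp1, Foxp2/Foxp1 and Foxc2/Foxl1 are lower in every mutant library than in any control of the same set, and Foxc2/Foxc1 overlaps in the sorted cells.

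Within 200 kilobases, 4 of the 8 genes have a forkhead neighbour. Foxd2 lies 16.3 kilobases from Foxe3 on chromosome 4, a gene with 2 and 0 counts in the Bmp4 mutants and 0 in every other library. Foxf1, Foxc2 and Foxl1 lie in that order on the plus strand of chromosome 8, with gaps of 28.0 and 9.0 kilobases, and Foxf2 lies 175.2 kilobases before Foxc1 on chromosome 13. Foxf1 and Foxf2 are Hedgehog-responsive regulators of visceral mesenchyme. In the Wls mutant Foxf1 rose by edgeR (log2 fold change 0.59 ± 0.17, edgeR adjusted p = 0.020) but did not pass by DESeq2 (adjusted p = 0.099), and Foxf2 rose (1.89 ± 0.20, edgeR adjusted p = 2.6e-14), with 32.8 CPM against 9.11 and 8.61 CPM for Foxf2. Their neighbours Foxc2, Foxl1 and Foxc1 stood at -0.85, -0.09 and 0.03. In the Bmp4 mutants Foxf1 and Foxf2 did not pass (-1.24 and -0.83, edgeR adjusted p = 0.092 and 0.52). Foxf2 had 6.94 and 10.4 CPM in the Bmp4 mutants, against 3.48, 3.90 and 38.9 CPM in the controls, and without control 3 its log2 fold change turned to 1.23 (edgeR adjusted p = 0.093). Foxf1 passed without mutant 2 (-2.28, edgeR adjusted p = 0.048) and without control 2 (-1.62, edgeR adjusted p = 0.043). Foxc2 counts relative to Foxl1, its nearest neighbour, were 0.167 and 0.101 in the Bmp4 mutants, against 0.247, 0.271 and 0.339 in controls, and 0.963 in the Wls mutant, against 1.72 and 1.53. Those Bmp4 mutant ratios rest on 22 and 55 Foxc2 counts, 0.402 and 0.940 times the background at the coding rate. The part of the background in them was not tested.

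Promoter sequence from RefSeq (GRCm38.p6, 250 bases before to 50 after a transcription start) was at hand for 5 of the 8 genes, 7 promoters in all. It was searched on both strands for the forkhead core TGTTTA, the TCF/LEF site CTTTGAT, the GC-rich SMAD site GGCGCC and the GLI site GACCACCC, which 13.4%, 3.73%, 11.9% and 0.807% of all 32851 promoters held. The promoters of Foxp4 and Foxc1, which fell together in the Bmp4 mutants, are shown with 1 of the 3 Foxp1 promoters, whose gene did not pass; capitals mark matches.

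Foxp4: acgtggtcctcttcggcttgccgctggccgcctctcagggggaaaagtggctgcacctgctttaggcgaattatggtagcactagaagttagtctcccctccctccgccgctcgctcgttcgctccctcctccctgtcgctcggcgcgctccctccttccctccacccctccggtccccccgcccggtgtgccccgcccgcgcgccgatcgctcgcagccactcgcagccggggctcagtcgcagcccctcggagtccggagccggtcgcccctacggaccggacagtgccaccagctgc
Foxc1: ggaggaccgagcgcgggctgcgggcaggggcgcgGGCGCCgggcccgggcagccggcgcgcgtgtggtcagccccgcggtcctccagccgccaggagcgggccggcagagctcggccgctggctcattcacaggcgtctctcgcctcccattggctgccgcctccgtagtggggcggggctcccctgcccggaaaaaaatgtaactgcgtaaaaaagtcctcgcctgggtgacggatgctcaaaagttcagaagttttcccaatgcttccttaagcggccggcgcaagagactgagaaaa
Foxp1: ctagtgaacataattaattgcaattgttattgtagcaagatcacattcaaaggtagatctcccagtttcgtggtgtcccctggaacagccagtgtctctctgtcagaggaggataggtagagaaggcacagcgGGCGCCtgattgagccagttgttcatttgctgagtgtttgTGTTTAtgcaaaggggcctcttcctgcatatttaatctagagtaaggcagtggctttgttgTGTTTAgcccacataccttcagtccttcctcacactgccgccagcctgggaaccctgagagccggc

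These lie at chr17:47924583-47924882 (minus strand), chr13:31806396-31806695 (plus strand) and chr6:99266466-99266765 (minus strand). All 3 Foxp1 promoters held the forkhead core, the one shown 2 times, and the other 4 promoters had no match to it in this window. The GC-rich SMAD letters were found in Foxc1 and in 2 Foxp1 promoters, and no match to the TCF/LEF or GLI letters was found in any of the 7. Gene counts do not tell which Foxp1 start was used, and a match is a string of letters, not a bound site.

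Of 36 other forkhead genes, 31 were tested in the sorted cells, where 13 were higher in the Bmp4 mutants and 0 lower by edgeR, beside 39.3% of all genes higher and 15.6% lower. By DESeq2 the counts were also 13 and 0, without mutant 1 they were 1 and 0, and without mutant 2 they were 10 and 3. All 13 had a mean under 1 CPM in the controls (0 to 0.447 CPM), such as Foxn1, a thymus gene, with 7.74 and 3.06 CPM in the mutants against 0, 0 and 0.0831 CPM, and the part of the background in them was not tested. In the tracheas 20 were tested, 4 higher and 0 lower, beside 1.88% and 2.39% of all genes. By DESeq2 the counts were 2 and 0, Foxa2 and Foxf2. Besides Foxf1 and Foxf2 these were Foxa1 and Foxa2, regulators of airway epithelium, at 112 CPM in the Wls mutant against 79.1 and 63.5 CPM, and at 79.7 CPM against 49.2 and 37.6 CPM.

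Genes for 14 repressor partners of Foxp proteins were also read. In the sorted cells 7 were lower and 1 higher in the Bmp4 mutants, with a median log2 fold change of -0.61, beside 15.6% of all genes lower, 39.3% higher and a median of 0.53. The 12522 genes at least 5 times above the receptor-gene background had a median of -0.24, nearer to that of the partners. The partners were read in the main fit only, without left-out libraries or subtraction of background. The smallest p-values belonged to Gatad2a, Chd4 and Rbbp7, of the NuRD complex, and to the co-repressor Ctbp1, at -0.77 ± 0.13, -0.83 ± 0.18, -0.59 ± 0.15 and -1.17 ± 0.22 (edgeR adjusted p = 0.0034, 0.0072, 0.014 and 0.0041). In the tracheas 1 was lower, Gatad2b, and 1 higher, Nkx2-1, an epithelial regulator with 91.0 CPM in the Wls mutant against 66.4 and 56.6 CPM (edgeR adjusted p = 0.031).

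Likeness to other genes was measured as the root-mean-square difference of log2 CPM profiles over all 8 libraries, each relative to its own controls, among 9488 genes with a mean of at least 10 CPM in both sets of controls. The profile nearest to Foxp2 was that of Rbmxl1 (0.0594), then Ezh2, a histone methyltransferase (0.0722). Foxp1 was nearest to C330018D20Rik and Ccdc28b (0.069 and 0.101), Foxp4 to 5730559C18Rik and Tpd52l1 (0.13 and 0.135). Foxc1 was nearest to Pdgfc, a growth factor gene, and Sfpq (0.179 and 0.252), and Foxc2 to Sox4 and Snai1, transcription factors of mesenchymal and progenitor cells (0.223 and 0.237). The median gene differed by 0.377 from Foxp1 and by 1.03 from Foxc2, and all profiles share the same libraries, depth and background.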

How the data were processed

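RNA from sorted tracheal cells (SMART-Seq v4) and whole tracheas (Ovation RNA-Seq System v2) was made into Nextera XT libraries, per the labels' protocols. The deposited values were raw whole-number counts per gene symbol, 1 table per set, with no change made to what the authors deposited. Names given in the submitters' processing notes are mm10, Bowtie2, Cufflinks, DESeq and, for the sorted cells, Trim Galore, without versions or roles. How genes were counted, by which program, strand setting and annotation, is not given in the sources used here. Libraries of a group differed by a chi-square of 23.4 to 184 per degree of freedom, so each was counted on its own. The protocols name no molecular identifiers.

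Each table was tested in edgeR 4.0.16 (R 4.3.3) with TMM scaling, the default filter by group, the quasi-likelihood F test and Benjamini-Hochberg adjustment over all genes tested, with a threshold of 0.05. Residual degrees of freedom were 3 (sorted cells) and 1 (tracheas). Each standard error is the log2 fold change divided by the root of F, and CPM carry the TMM factors except in sums of markers or receptors. The code was tested on simulated data. Alternatives were DESeq2 1.42.0, limma-voom (limma 3.58.1), other scaling, no filter, left-out libraries, a replicate block and subtraction of background. Exon lengths and GC content came from GENCODE M21 (GRCm38) for 23124 of 23478 symbols. The members, the lists and the tests were chosen with earlier results of these data known. Named genes were the 8 members, the targeted genes, Foxf1 and Foxf2, called other forkhead genes at 10 CPM or more in controls, at most 4 repressor partners by smallest p, and the 2 genes nearest to each Foxp and Foxc member. Foxn1 and the silent forkhead genes were named after their values were seen. Some items are not reported here.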

Additional observations from a re-analysis of the deposited data

How the results depend on the processing

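In the sorted cells 87 of 104 combinations of member and alternative kept the direction and the side of the threshold. In the tracheas 44 of 48 counted as kept, but those with a control left out had no test and were judged by direction alone. Members not called in the main fit count as kept when they stay uncalled. In the sorted cells only Foxp2, Foxp4, Foxc1 and Foxc2 were called in the main fit, so only they could lose a call. They did so in 10 combinations. The 7 combinations that changed direction were of Foxd1 or Foxd2. Foxp4 stayed past the threshold in the sorted cells in every alternative run except the replicate block. By limma-voom 2 of the 8 members were called (Foxc1 at -1.77 and Foxc2 at -2.23 were not). With single libraries left out, the number of members called lay between 2 and 4, of all genes between 3595 and 10478, and of other forkhead genes between 1 and 18. The lowest counts came without mutant 1, where 2 members, 3595 genes and 1 other forkhead gene were called, and without mutant 2 there were 7829 genes. Leave-one-out log2 fold changes in the sorted cells ranged from -2.42 to -1.32 for Foxc1, from -2.80 to -1.86 for Foxc2 and from -0.69 to 1.82 for Foxd1. In the tracheas, where leaving out a control gives a value without a test, they ranged from -0.035 to 0.10 for Foxc1 and from -0.025 to 0.42 for Foxd1.

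With the replicate block 4 genes of all, 0 members and 0 other forkhead genes were called by edgeR, with 9833 genes at an unadjusted p under 0.05. The block leaves fewer residual degrees of freedom than the 3 of the main fit, and control 3 has no mutant of its number. Under the block Foxp2, Foxp4, Foxc1 and Foxc2 stood at -1.22, -1.53, -1.58 and -2.38 (adjusted p = 0.054, 0.052, 0.069 and 0.069). The numbers are not said to pair libraries, and deviations of same-numbered libraries correlated at -0.17 and -0.11. With 2 mutants, their deviations from their own mean are mirror images, so these correlations cannot tell whether the numbers pair libraries. The trachea groups share no 2 numbers, so no paired fit was possible there.

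Subtracting the receptor rate per exon kilobase left 7826 genes, 4 members and 7 other forkhead genes called, 5728 of the genes higher and 2098 lower, with Foxd1 at -7.58 and Foxd2 at -0.52. The rate per coding kilobase left 3665 genes, 2 members and 3 other forkhead genes, with Foxp2 at -0.88, Foxc1 at -3.87, Foxd1 at -7.51 and Foxd2 at -6.48. The fitted values of Foxd1, and of Foxd2 and Foxc2 (-11.54) at the coding rate, depend on the prior count, since the mutants were then at 0. In the tracheas DESeq2 called 259 genes, 0 members and 2 other forkhead genes, with Foxc2 at -0.84. With RLE scaling in place of TMM, edgeR called 2 members, Foxp1 at 0.55 among them. The cause of these shifts was not tested beyond what each alternative changes.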
